A study of Saccharomyces cerevisiae with 8 samples.

Results

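The genes described here are the yeast ribosome biogenesis factors that carry a family name, taken as every protein-coding gene whose name is NOP, UTP, RRP, NOC, RPF or RRN followed only by digits. The rule picked 65 genes of 6600, made up of 18 UTP, 18 RRP, 17 NOP, 7 RRN, 3 NOC and 2 RPF names. RNA was sequenced from 8 chemostat cultures of 4 evolved *Saccharomyces cerevisiae* strains, 2 biological replicates each, all derived from the FY4/S288C background with a GFP and KanMX reporter cassette and all grown under glutamine limitation. DGY1726 (Trans) carries a transposon-mediated duplication on chromosome XI bounded by TOF2 and GAP1, nested in a translocation that joins it to chromosome VIII, and a further amplified stretch on chromosome V. DGY1735 (ODIRA_A) carries an origin-dependent inverted-repeat amplification bounded by ALY1 and SIR1, DGY1743 (ODIRA_B) one bounded by VPS1 and ESL2, and DGY1741 (ComQuad) a shorter complex amplification bounded by SET3 and TRK2, all on chromosome XI. DGY1726 and DGY1735 were taken from earlier population samples than DGY1743 and DGY1741. Single colonies were picked by their fluorescence, and the unevolved ancestor was not analysed here. Cycloheximide was added to the medium of the cultures shortly before the cells were harvested, and its effect on RNA levels was not tested.

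Ribosome biogenesis begins in the nucleolus, where RNA polymerase I transcribes the long ribosomal RNA precursor and the small-subunit processome assembles on it while it is made. UtpA, UtpB and UtpC are protein modules of that processome, small nucleolar ribonucleoproteins (snoRNPs) modify and fold the precursor, further factors cut and remodel it into pre-subunits, and the exosome trims RNA ends. In yeast these genes are known as a regulon that follows growth rate and nutrient supply, and many of their promoters hold the PAC and RRPE elements, which are bound by the repressors Dot6 and Tod6 and by Stb3.

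Both elements were common around the start of the 65 genes, mostly upstream, and short windows are shown because they are what most members share beyond their names. The core of PAC was searched as GATGAG, which reads CTCATC on the other strand, and the core of RRPE as AAAAATTT, which there reads AAATTTTT, in the 300 bases from 250 before to 50 after the start codon, on both strands. The windows below are 30 bases of the R64-1-1 reference read 5′ to 3′ on the strand of the gene, with every match to either core that lies whole in the window in capitals, so that overlapping matches run together. They are RPF2 and UTP30, the members on the amplified part of chromosome XI, NOP1, with the highest log2 ratio outside that part, NOP58 and UTP9, which were low in DGY1743, RRP5, which was low in DGY1743 and DGY1741, and RRN11, an RNA polymerase I factor.
RPF2: gaAAATTTTTcatttttttgcGATGAGcta
UTP30: tctatctgAAATTTTTcaaatttataaaaa
NOP1: AAAAATTTTTcaaattggaaagCTCATCtc
NOP58: tttggaAAATTTTTcaacCTCATCgaaaat
UTP9: attttgAAAAATTTaacGATGAGatggagt
RRP5: attttgAAAAATTTtaaGATGAGATGAGct
RRN11: ataaacatCTCATCTCATCTCATCtcagat
The windows lie at chrXI:592652-592681 on the minus strand (RPF2), chrXI:556385-556414 on the plus strand (UTP30), chrIV:427138-427167 on the plus strand (NOP1), chrXV:898471-898500 on the minus strand (NOP58), chrVIII:491805-491834 on the plus strand (UTP9), chrXIII:731267-731296 on the minus strand (RRP5) and chrXIII:191935-191964 on the minus strand (RRN11). A match is only a run of letters, and binding was not measured. RPF2, NOP1, NOP58, UTP9 and RRP5 are among 25 members in which both cores fit whole and without overlap into 30 bases. UTP30 had an RRPE core without PAC, and RRN11 had 3 overlapping PAC cores without RRPE.

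Of the 65 members, 54 (83.1%) held a PAC core, 43 (66.2%) an RRPE core, 37 (56.9%) both and 5 (7.69%) neither. Among 6571 nuclear protein-coding genes the shares were 19.7% for PAC, 13.5% for RRPE, 5.20% for both and 72.0% for neither. Of 92 biogenesis genes with other names, listed by hand, 89.1% held PAC and 84.8% RRPE. Upstream of the start codon, the PAC matches of the members began at a median of 119 bases before it and the RRPE matches at a median of 134 bases. The motifs were not spread evenly over the roles. PAC and RRPE were found together in all 4 snoRNP genes, in 5 of 6 UtpA genes, in 13 of 17 large-subunit factors and in 1 of 7 exosome genes. None of the 7 RRN genes held an RRPE core, although 5 of them held PAC. These counts include matches that are not upstream. The only PAC match of UTP4 began 5 bases after the first base of the start codon, and that of RRN9 overlapped the start codon. The 5 members with neither core were RRN5, RRN7, RRP45, RRP46 and UTP22, of which RRN7 is named here after its values were seen.

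**Figure D1:**
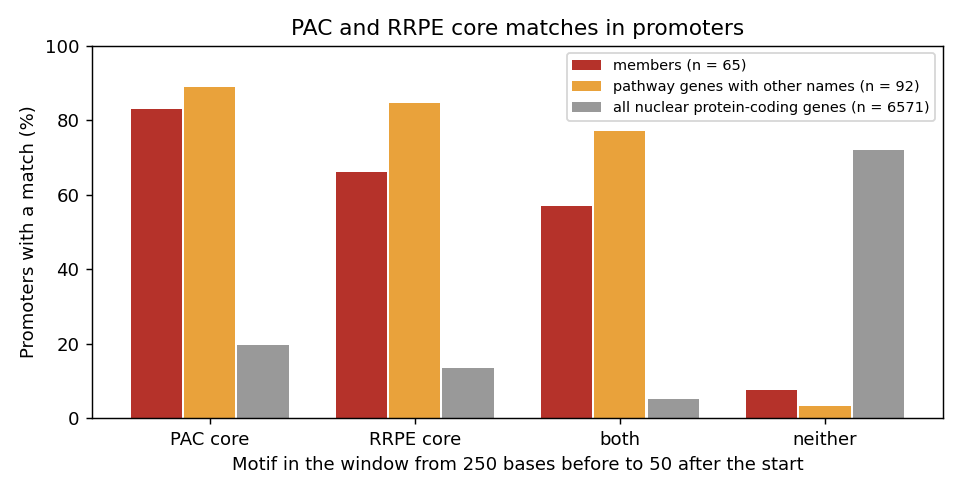
Share of promoter windows, which reach 50 bases into the gene, with a PAC core, an RRPE core, both or neither (percent, vertical axis). Groups are the 65 members, 92 biogenesis genes with other names and 6571 nuclear protein-coding genes. A PAC core stood in 83.1% of the members and in 19.7% of all nuclear genes.

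Between 10298053 and 15326760 reads were counted on gene rows in each library, and counts are given below as CPM, counts relative to library sizes scaled by the trimmed mean of M values (TMM). A gene was tested where it averaged at least 100 counts over the 8 libraries, which 5527 of 6600 genes did, among them all 65 members. Mitochondrial genes took 13.2% and 19.2% of the protein-coding counts in the DGY1743 libraries, against 0.05% to 0.10% in the other 6, and the ratios that involve DGY1743 were also computed with mitochondrial and chromosome XI genes left out of the library sizes. Replicates were not equal in DGY1726 and DGY1735. The median member was 0.26 higher on the log2 scale in replicate 1 than in replicate 2 of DGY1726, with 57 of 65 members higher, and 0.45 higher in replicate 1 of DGY1735, with 61 of 65 higher. In DGY1741 and DGY1743 these medians were 0.02 and -0.07. Since a whole culture was sequenced, more cells in a growing state and more RNA per cell cannot be told apart. The paper gives the same inflow rate for all chemostats, and growth rate was not examined here.

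Levels per length ran from a mean of 17.3 RPKM (CPM per kilobase of gene) for RRN7, a subunit of the RNA polymerase I core factor, to 762 RPKM for NOP10, a short subunit of H/ACA snoRNPs, with a median of 78.8 RPKM, against 69.6 RPKM over all tested genes. Together the members took 1.22% and 0.996% of the protein-coding counts in the DGY1726 libraries and 1.35% and 1.02% in the DGY1735 libraries. In DGY1743 they took 0.744% and 0.737% of all protein-coding counts, or 0.857% and 0.912% of the nuclear ones, and in DGY1741 0.917% and 0.915%. Every library of DGY1726 and DGY1735 was thus above every library of DGY1743 and DGY1741 on this sum. Relative to each gene's mean over the 8 libraries, the median member stood at 0.28 and 0.00 on the log2 scale in DGY1726, 0.43 and 0.01 in DGY1735, -0.29 and -0.21 in DGY1743, and -0.09 and -0.10 in DGY1741. The median over all tested genes lay between -0.02 and 0.00 in each library.

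**Figure D2:**
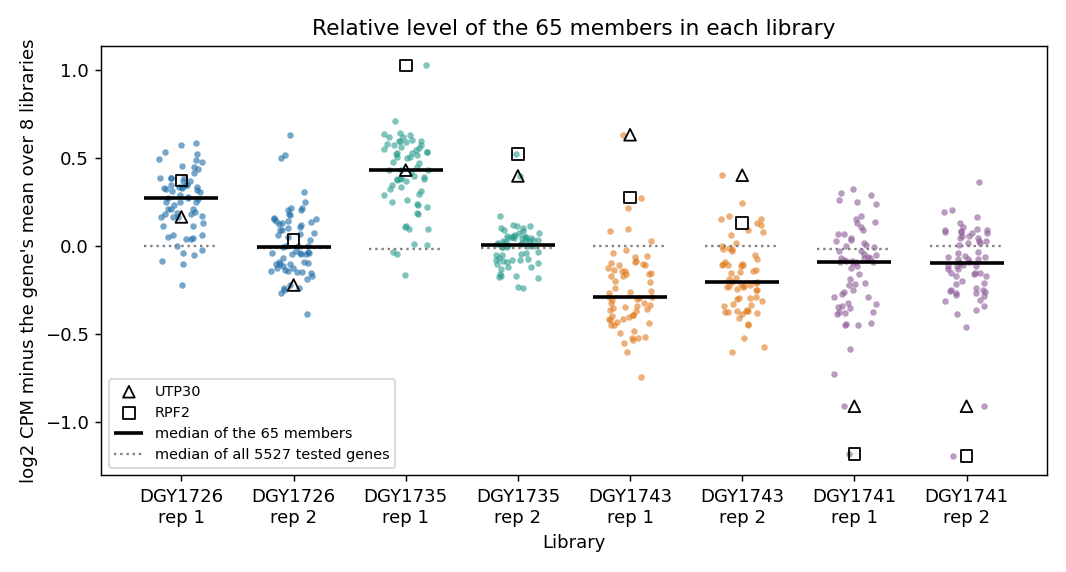
Each point is 1 of the 65 members in 1 library, as log2 CPM minus the gene's mean over the 8 libraries (vertical axis), with black bars at the member median and dotted bars at the median of all 5527 tested genes. Replicate 1 of DGY1726 (median 0.28) and of DGY1735 (0.43) stood highest, both DGY1743 libraries (-0.29 and -0.21) lowest, and UTP30 and RPF2 stood below the other members in DGY1741.

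Most members moved together across the libraries. The median Pearson correlation between pairs of members over the 8 libraries was 0.66, with 86% of 2080 pairs positive, as a description of points that share libraries and depth. In 31 members the mean was highest in DGY1735 and lowest in DGY1743. Neither the share of positive pairs nor this count was computed over all tested genes, so they cannot be read as particular to the members. The high place of DGY1735 leaned on its replicate 1, where the median member stood at 0.43, against 0.01 in replicate 2. Without that replicate the median log2 ratio of DGY1726 over DGY1735 went from -0.09 to 0.16. The range between the highest and the lowest strain mean had a median of 0.53 on the log2 scale and reached 1 in only 4 members, RPF2, UTP30, NOP1 and NOC4, of which NOC4, a factor of small-subunit export, is named after its values were seen. The narrowest range, 0.12, belonged to NOP16, a large-subunit assembly factor.

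**Figure D3:**
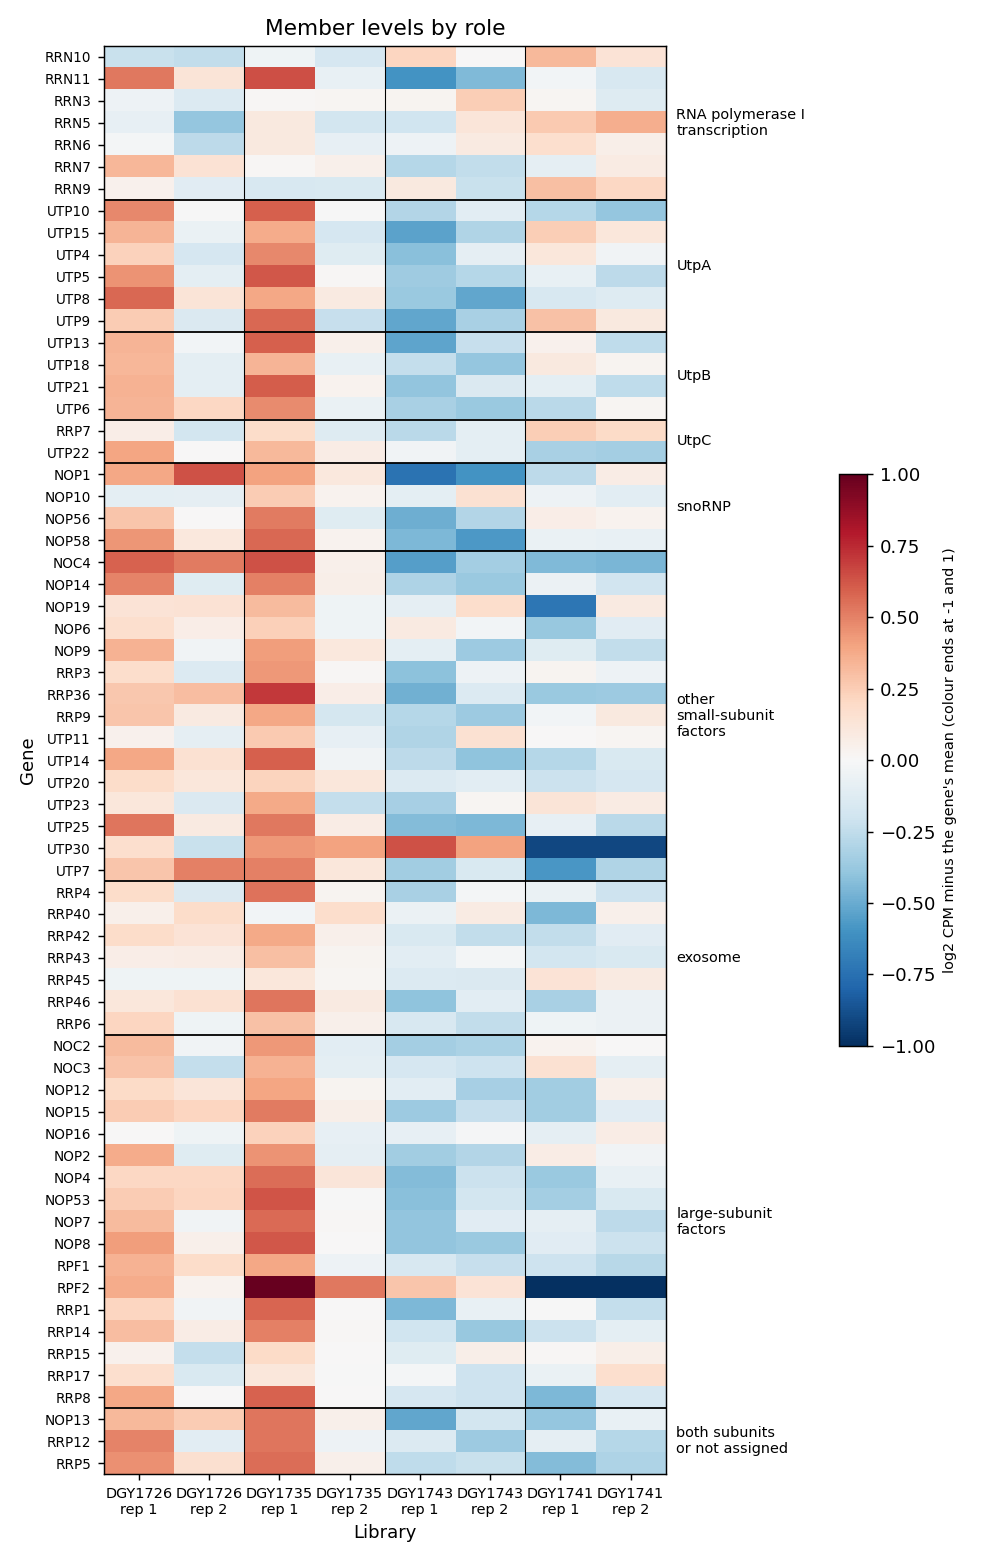
Rows are the 65 members grouped by role and columns the 8 libraries, and color is log2 CPM minus the gene's mean, from blue (-1 and below) to red (1 and above). Most rows run red in replicate 1 of DGY1726 and DGY1735 and blue in DGY1743, and several RRN genes do not follow that pattern.

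In a test for any difference among the 4 strains (edgeR quasi-likelihood F-test with Benjamini-Hochberg adjustment over 5527 genes, threshold 0.05), 30 of 65 members (46.2%) passed, against 47.3% of all tested genes. How often members differed in this test was therefore near the background. In the pairs described below most members shared a direction. Between DGY1726 and DGY1743 they were also called more often, at 53.8% either way against 27.2% of all tested genes. The count of members moved widely, up and down, when single libraries were left out. The share of all tested genes called in those fits is not given, so the move cannot be read as particular to the members.

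Between DGY1726 and DGY1735, no member passed the test in either direction (background 1.10% higher, 0.651% lower and 1.76% either way, as the share of all tested genes). The median member log2 ratio was -0.09, with 51 of 65 below 0. At an unadjusted p under 0.05 there were 2 members, both lower in DGY1726 (background 6.28% lower at that p), and DESeq2 called 0 (background 3.46% either way). The smallest adjusted p was 0.203 (edgeR), for RPF2, whose log2 ratio was -0.59 ± 0.18 (SE). Without DGY1735 replicate 2, 1 member was called lower, and the median went to -0.28, whereas it was 0.16 without DGY1735 replicate 1.

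Between DGY1726 and DGY1743, 34 members (52.3%) were higher in DGY1726 and 1, UTP30, was lower (background 13.8% higher, 13.4% lower and 27.2% either way). The median member log2 ratio was 0.41, against 0.01 over all tested genes, and 58 of 65 were above 0. In 44 members both DGY1726 libraries lay above both DGY1743 libraries, which held for 31.6% of all tested genes. The higher members were 5 of 6 in UtpA, all 4 in UtpB, 3 of 4 in the snoRNP group, 7 of 15 other small-subunit factors, 10 of 17 large-subunit factors, all 3 genes that act on both subunits or were not assigned, 2 of 7 RRN genes and none of the 7 exosome genes or the 2 UtpC genes. With mitochondrial and chromosome XI genes out of the library sizes the median was 0.40. Without DGY1726 replicate 1, 10 members were called higher, and the 1 lower call was lost without DGY1726 replicate 2 or DGY1743 replicate 1.

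Between DGY1726 and DGY1741, 28 members (43.1%) were higher in DGY1726 and 2 were lower (background 22.0% higher, 21.2% lower and 43.2% either way). The median member log2 ratio was 0.32, with 50 of 65 above 0. Here 8 of 15 other small-subunit factors, 8 of 17 large-subunit factors, 3 of 6 UtpA genes and 1 of 4 UtpB genes were higher. The 2 lower members were RRN5 and RRN10, both subunits of the RNA polymerase I upstream activating factor, of which RRN10 is named after its values were seen. Without DGY1726 replicate 1, 13 members were called higher. The number called lower was 3 without DGY1726 replicate 1, 0 without DGY1726 replicate 2 and 1 without DGY1741 replicate 1.

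Between DGY1735 and DGY1743 the median member log2 ratio was 0.52, the highest of the 6 pairs, and 60 of 65 members were above 0, but only 11 (16.9%) were called higher and none lower (background 6.40% higher, 9.72% lower and 16.1% either way). At an unadjusted p under 0.05 there were 42 members, all higher in DGY1735 (background 16.1% higher at that p), and DESeq2 called 32 higher (background 9.23% higher). Leaving out single libraries moved the count of higher members to 3 without DGY1735 replicate 1, 45 without DGY1735 replicate 2 and 0 without either DGY1743 replicate. Without mitochondrial and chromosome XI genes in the library sizes the median was 0.52 as well.

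Between DGY1735 and DGY1741, 28 members (43.1%) were higher in DGY1735 and 2, RRN5 and RRN9, were lower (background 18.2% higher, 20.3% lower and 38.5% either way). The median was 0.38, with 56 of 65 members above 0, and 9 of 15 other small-subunit factors, 9 of 17 large-subunit factors, 3 of 7 exosome genes and none of the 4 snoRNP genes were higher. The number called higher was 6 without DGY1735 replicate 1, 43 without DGY1735 replicate 2, 2 without DGY1741 replicate 1 and 15 without DGY1741 replicate 2. The number called lower was 1 without DGY1735 replicate 2, 0 without DGY1741 replicate 1 and 1 without DGY1741 replicate 2.

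Between DGY1743 and DGY1741, 10 members (15.4%) were lower in DGY1743 and 2 were higher (background 10.3% lower, 14.3% higher and 24.6% either way). The 2 higher members were UTP30 and RPF2. The median was -0.11, with 48 of 65 members below 0. The lower members were 3 of 4 snoRNP genes, 2 of 6 UtpA genes and 1 gene each of UtpB, UtpC, the RRN genes, the other small-subunit factors and the large-subunit factors. The share of lower members was not far from the background, and the count was 3 without DGY1741 replicate 1 and 2 without DGY1741 replicate 2.

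**Figure D4:**
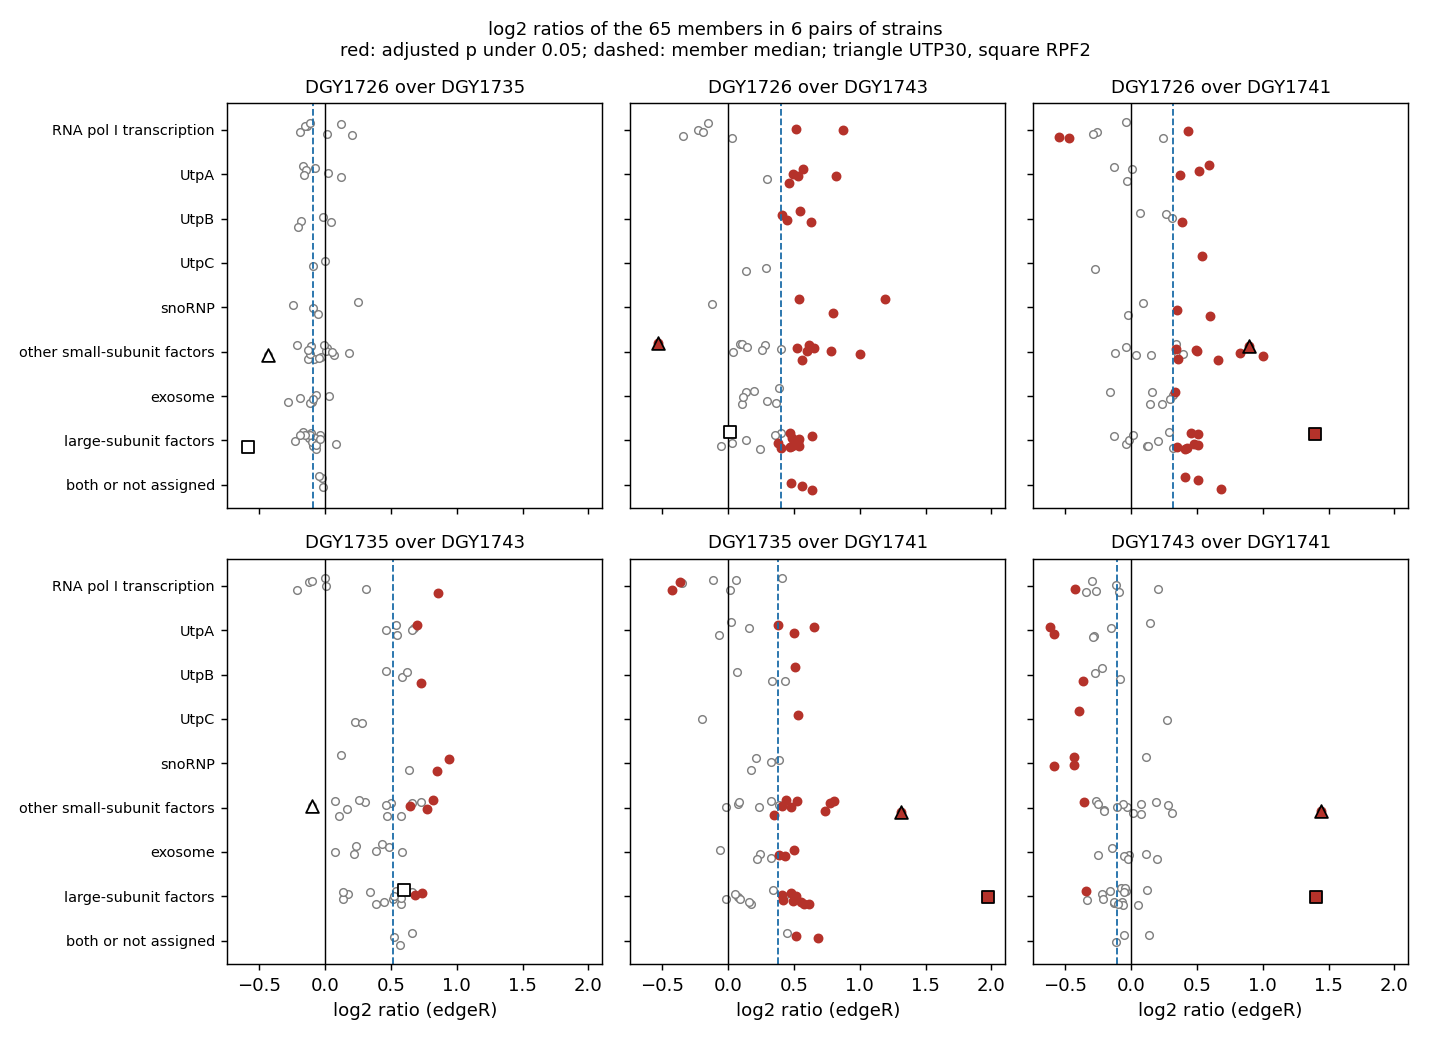
Each point is the edgeR log2 ratio (horizontal axis) of 1 member in 1 pair of strains, in rows by role, red where the adjusted p was under 0.05, with the member median dashed. Medians stood right of 0 for DGY1726 and DGY1735 over DGY1743 and DGY1741 (0.32 to 0.52), UTP30 (triangle) and RPF2 (square) stood far right over DGY1741, and most RRN genes stood left of the member median in each pair.

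UTP30 and RPF2 were the members with the widest strain differences. UTP30 (YKR060W, chrXI:556518-557342) belongs to the small-subunit processome and RPF2 (YKR081C, chrXI:591506-592540) brings the 5S ribonucleoprotein into the large pre-subunit. By the positions of the bounding genes, both lie inside the segments of DGY1735 and DGY1743 and outside that of DGY1741. They also lie outside the TOF2 to GAP1 duplication of DGY1726. The paper, however, reports a set of genes outside the stretch shared by all strains as amplified in DGY1726, DGY1735 and DGY1743. It gives a copy number for each gene, and that of UTP30 and RPF2 in DGY1726 was not examined here. No other member lay inside any of these segments.

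UTP30 was at 70.6 and 53.9 CPM in DGY1726, 84.9 and 83.0 CPM in DGY1735, and 97.7 and 83.3 CPM in DGY1743, against 33.4 and 33.4 CPM in DGY1741. The other 3 strains thus lay above DGY1741 without overlap. Over DGY1741, the log2 ratio was 0.90 ± 0.15 (SE) in DGY1726 (edgeR adjusted p = 6.7e-05), 1.32 ± 0.12 in DGY1735 (1.12e-06) and 1.44 ± 0.16 in DGY1743 (3.01e-18). UTP30 was also lower in DGY1726 than in DGY1743, with a log2 ratio of -0.53 ± 0.16 (edgeR adjusted p = 0.0166).

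RPF2 was at 231 and 182 CPM in DGY1726, 364 and 257 CPM in DGY1735, and 216 and 195 CPM in DGY1743, against 78.4 and 78.0 CPM in DGY1741. DGY1735 was highest in both replicates and DGY1741 lowest. Over DGY1741, the log2 ratio was 1.40 ± 0.13 (SE) in DGY1726 (edgeR adjusted p = 2.89e-08), 1.97 ± 0.16 in DGY1735 (5.29e-07) and 1.40 ± 0.14 in DGY1743 (2.61e-22). The ratio of DGY1735 over DGY1743 was 0.60 ± 0.18 and did not pass (adjusted p = 0.0551), and that of DGY1726 over DGY1743 was 0.01 ± 0.13 (adjusted p = 0.957). In all 12 or 13 alternatives run for each pair, the calls of UTP30 and RPF2 over DGY1741 held, with log2 ratios of 0.69 to 1.57 for UTP30 and 1.22 to 2.21 for RPF2.

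**Figure D5:**
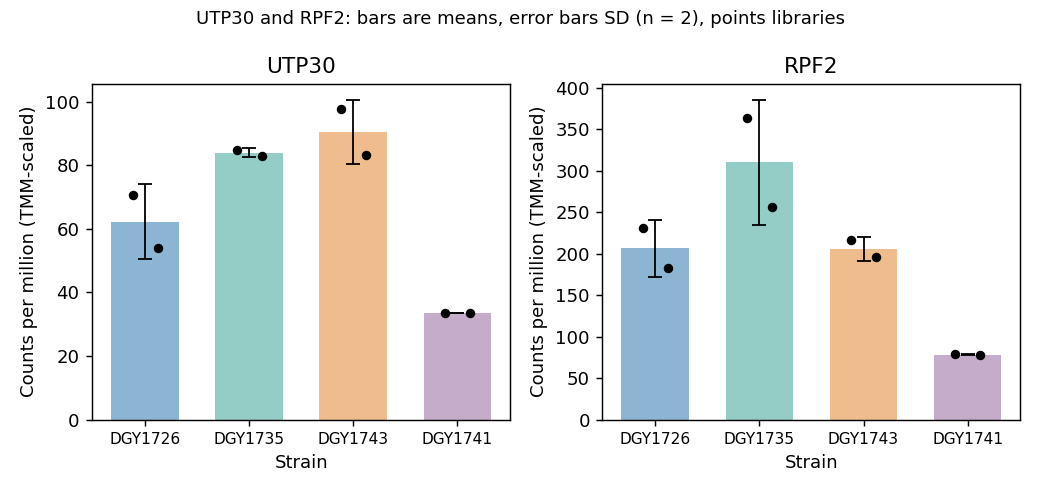
CPM (vertical axis) of UTP30 (left) and RPF2 (right) by strain, with bars at the mean, error bars of 1 SD and points for the 2 libraries. DGY1741 held 33.4 CPM of UTP30 and 78.0 to 78.4 CPM of RPF2, below every library of the other 3 strains.

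Of the 4 snoRNP genes in the list, NOP1, NOP56 and NOP58 were lower in DGY1743 than in DGY1726 and in DGY1741, and NOP10 was not. Of the 4 snoRNP genes with other names (CBF5, GAR1, NHP2 and SNU13), 2 were higher in DGY1726 than in DGY1743 (background 13.8%). Between DGY1743 and DGY1741, 0 of these were called (background 24.6% either way). NOP1 encodes fibrillarin, the methyltransferase of box C/D snoRNPs, and it was at 96.8 and 115 CPM in DGY1726, 97.6 and 79.4 CPM in DGY1735, and 44.1 and 48.7 CPM in DGY1743, against 61.6 and 77.7 CPM in DGY1741. Both DGY1743 libraries were below all 6 others. The log2 ratio was 1.20 ± 0.15 (SE) for DGY1726 over DGY1743 (edgeR adjusted p = 4.31e-06), 0.94 ± 0.15 for DGY1735 over DGY1743 (0.00596, a call lost without either DGY1743 library), 0.60 ± 0.13 for DGY1726 over DGY1741 (0.00117) and -0.58 ± 0.16 for DGY1743 over DGY1741 (0.00179).

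NOP56 and NOP58 are the core proteins that hold box C/D snoRNPs together. NOP58 was at 353 and 279 CPM in DGY1726, 388 and 267 CPM in DGY1735, and 191 and 175 CPM in DGY1743, against 249 and 248 CPM in DGY1741. DGY1743 was again lowest in both libraries, with log2 ratios of 0.80 ± 0.14 (SE) for DGY1726 over it (edgeR adjusted p = 0.000144), 0.85 ± 0.18 for DGY1735 over it (0.0199) and -0.44 ± 0.14 for DGY1743 over DGY1741 (0.00787). NOP58 shares a same-strand stretch with the dubious reading frame YOR309C, so reads there could count for both. NOP56 was at 482 and 399 CPM in DGY1726, 571 and 367 CPM in DGY1735, and 283 and 326 CPM in DGY1743, against 418 and 407 CPM in DGY1741. It was lower in DGY1743 than in DGY1726 and in DGY1741, with log2 ratios of 0.54 ± 0.14 (SE) for DGY1726 over DGY1743 (edgeR adjusted p = 0.0053) and -0.43 ± 0.14 for DGY1743 over DGY1741 (0.0114). NOP10, of the H/ACA class, was at 126 and 126 CPM in DGY1726, 160 and 138 CPM in DGY1735, and 125 and 150 CPM in DGY1743, against 130 and 125 CPM in DGY1741, and passed no test.

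UtpA binds the start of the ribosomal RNA precursor, and the mean of 5 of its 6 genes was lowest in DGY1743, with UTP10 lowest in DGY1741. UTP9, the member most reduced in DGY1743 relative to DGY1741, was at 187 and 214 CPM in DGY1743, against 329 and 287 CPM in DGY1741, and it was at 320 and 243 CPM in DGY1726 and 401 and 228 CPM in DGY1735. All 6 libraries outside DGY1743 were above it. The log2 ratio of DGY1743 over DGY1741 was -0.61 ± 0.14 (SE; edgeR adjusted p = 7.71e-05) and that of DGY1726 over DGY1743 was 0.50 ± 0.14 (0.011). The first of these missed the threshold in the fit of all 8 libraries (adjusted p = 0.0609). UTP8 was at 153 and 112 CPM in DGY1726, 134 and 109 CPM in DGY1735, and 79.3 and 71.2 CPM in DGY1743, against 91.5 and 93.5 CPM in DGY1741. It was higher in DGY1726 and DGY1735 than in DGY1743 and DGY1741 in all 4 tests, with log2 ratios of 0.82 ± 0.15 (SE) for DGY1726 over DGY1743 (edgeR adjusted p = 0.000399) and 0.51 ± 0.13 for DGY1726 over DGY1741 (0.00418). UTP10, named here after its values were seen, was in DGY1741 at 388 and 362 CPM, with log2 ratios over it of 0.59 ± 0.14 in DGY1726 and 0.65 ± 0.18 in DGY1735 (edgeR adjusted p = 0.00183 and 0.0104). UTP4, with the narrowest range of this module, passed no test.

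UtpB follows UtpA onto the precursor, and all 4 of its genes in the list were higher in DGY1726 than in DGY1743, with log2 ratios of 0.41 (UTP21) to 0.63 (UTP6). UTP13 was at 235 and 183 CPM in DGY1726, 281 and 192 CPM in DGY1735, and 129 and 158 CPM in DGY1743, against 192 and 156 CPM in DGY1741. It was the UtpB gene called for DGY1735 over DGY1743, at 0.73 ± 0.19 (SE; edgeR adjusted p = 0.0386). UTP18, which brings the exosome helicase to the precursor, was the UtpB gene called lower in DGY1743 than in DGY1741, at -0.37 ± 0.14 (edgeR adjusted p = 0.0334).

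The UtpC genes parted. UTP22 was at 363 and 278 CPM in DGY1726, 348 and 292 CPM in DGY1735, and 270 and 259 CPM in DGY1743, against 221 and 219 CPM in DGY1741, which was below all other libraries. Its log2 ratios over DGY1741 were 0.54 ± 0.13 (SE) in DGY1726 and 0.53 ± 0.13 in DGY1735 (edgeR adjusted p = 0.00222 and 0.00591). RRP7 was highest in DGY1741 instead, at 150 and 169 CPM in DGY1743, against 214 and 207 CPM in DGY1741, a log2 ratio of -0.39 ± 0.14 (edgeR adjusted p = 0.0183), with 189 and 159 CPM in DGY1726 and 205 and 165 CPM in DGY1735.

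RRP5, a large RNA-binding scaffold needed for both subunits, was at 577 and 471 CPM in DGY1726, 618 and 436 CPM in DGY1735, and 352 and 361 CPM in DGY1743, against 312 and 339 CPM in DGY1741. The DGY1726 and DGY1735 libraries lay above all 4 of the others. RRP5 was higher in DGY1726 than in DGY1743 by 0.56 ± 0.14 (SE) on the log2 scale (edgeR adjusted p = 0.00423) and than in DGY1741 by 0.69 ± 0.12 (0.000179), and higher in DGY1735 than in DGY1741 by 0.68 ± 0.16 (0.00466). NOP13, a nucleolar RNA-binding protein, and RRP12, a pre-ribosome export factor, were higher in DGY1726 than in DGY1743 (log2 ratios 0.64 and 0.48) and than in DGY1741 (0.51 and 0.41).

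NOC4 was at 118 and 113 CPM in DGY1726, 123 and 81.5 CPM in DGY1735, and 53.7 and 62.2 CPM in DGY1743, against 58.0 and 57.2 CPM in DGY1741. It was thus high in DGY1726 and DGY1735 and low in the other strains, with log2 ratios of 1.00 ± 0.14 (SE) for DGY1726 over DGY1743 and 1.00 ± 0.12 for DGY1726 over DGY1741 (edgeR adjusted p = 2e-05 and 9.37e-07).

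Among large-subunit factors other than RPF2, the log2 ratios of DGY1735 over DGY1741 ran up to 0.61 and those of DGY1726 over DGY1743 up to 0.64. NOP15, an RNA-binding factor of early large pre-subunits, was at 126 and 123 CPM in DGY1726, 152 and 110 CPM in DGY1735, and 82.3 and 90.3 CPM in DGY1743, against 83.0 and 97.9 CPM in DGY1741. Both DGY1726 and DGY1735 lay above both of the other strains, and all 4 of those tests passed, with log2 ratios of 0.46 to 0.61. The call for DGY1735 over DGY1743 (edgeR adjusted p = 0.0456) was lost without DGY1735 replicate 1 or either DGY1743 library. NOP16 stayed between 118 and 147 CPM in every library and passed no test.

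Of the 7 exosome genes, 3 were called higher for DGY1735 over DGY1741 (background 18.2% higher) and 1 for DGY1726 over DGY1741 (background 22.0% higher). None was called in the other pairs. RRP45, a ring subunit, was at 131 and 131 CPM in DGY1726, 145 and 136 CPM in DGY1735, and 122 and 122 CPM in DGY1743, against 148 and 143 CPM in DGY1741. RRP4, a cap subunit, and RRP46, a ring subunit, were higher in DGY1735 than in DGY1741 by 0.43 ± 0.16 and 0.50 ± 0.19 (SE) on the log2 scale (edgeR adjusted p = 0.0434 and 0.0484) and passed in no other pair. RRP42 was the exosome gene called for DGY1726 over DGY1741, at 0.34 ± 0.12, and is named after its values were seen. It was also higher in DGY1735 than in DGY1741, at 0.39 ± 0.13 (edgeR adjusted p = 0.0315). Of the other small-subunit factors with little change, UTP11 and UTP23 passed no test.

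The RRN genes, which encode initiation factors of RNA polymerase I rather than processing factors, mostly ran differently from the rest. Their median log2 ratio was -0.15 for DGY1726 over DGY1743 and -0.26 for DGY1726 over DGY1741, against 0.41 and 0.32 over all members. The 5 members with the lowest correlation to the member mean over the 8 libraries were RRN10, RRN9, RRN3, RRN5 and RRN6, at -0.58 to -0.02, a ranking made after the values were seen and given without a test. RRN3, which recruits the polymerase, was at 250 and 235 CPM in DGY1726, 261 and 262 CPM in DGY1735, and 265 and 308 CPM in DGY1743, against 262 and 236 CPM in DGY1741, and passed no test.

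RRN5 was at 39.6 and 32.0 CPM in DGY1726, 45.0 and 37.0 CPM in DGY1735, and 36.6 and 45.6 CPM in DGY1743, against 50.4 and 54.1 CPM in DGY1741. DGY1741 was above all 6 other libraries, with log2 ratios of -0.55 ± 0.15 (SE) for DGY1726 over DGY1741 and -0.37 ± 0.14 for DGY1735 over DGY1741 (edgeR adjusted p = 0.00519 and 0.0477), with the call for DGY1726 lost without DGY1726 replicate 2. RRN5 overlaps YLR140W on the same strand, so reads there could count for both. RRN9, of the same activating factor, was lower in DGY1735 than in DGY1741, at 47.1 and 47.2 CPM against 64.9 and 60.7 CPM, a log2 ratio of -0.43 ± 0.12 (edgeR adjusted p = 0.0112), a call lost without DGY1735 replicate 1 or DGY1741 replicate 1. RRN7 and RRN11, both subunits of the core factor, went with the processing genes instead, with correlations to the member mean of 0.65 and 0.95. RRN7 had a log2 ratio of 0.52 ± 0.19 (SE) for DGY1726 over DGY1743 (edgeR adjusted p = 0.0434) and passed in no other pair. RRN11 was the RRN gene with the widest range. It was at 184 and 140 CPM in DGY1726, 200 and 121 CPM in DGY1735, and 84.0 and 93.9 CPM in DGY1743, against 125 and 114 CPM in DGY1741. Its log2 ratio was 0.87 ± 0.14 (SE) for DGY1726 over DGY1743 (edgeR adjusted p = 0.000108) and -0.42 ± 0.14 for DGY1743 over DGY1741 (0.015).

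The listed biogenesis genes with other names were also mostly higher in DGY1726 and DGY1735. Of 92 such genes found and tested, 44 were higher and 1 lower in DGY1726 than in DGY1743, 40 higher and 0 lower than in DGY1741, and in DGY1735 21 were higher and 0 lower than in DGY1743 and 28 higher and 0 lower than in DGY1741. Between DGY1726 and DGY1735, 0 were called either way (background 1.76%). Their medians were 0.41 for DGY1726 over DGY1743, 0.29 for DGY1726 over DGY1741, 0.50 for DGY1735 over DGY1743 and 0.35 for DGY1735 over DGY1741. DBP7 was the only gene of this list at 2-fold or more over DGY1741. Its log2 ratios were 1.76 in DGY1726, 1.95 in DGY1735 and 1.52 in DGY1743. It lies on chromosome XI, as UTP30 and RPF2 do, and its copy number in each strain was not examined here. Of the 7 RNA polymerase I subunits, 4 were higher in DGY1726 than in DGY1743, 6 in DGY1726 than in DGY1741, 2 in DGY1735 than in DGY1743 and 0 in DGY1735 than in DGY1741, with none lower. In the same order of pairs, the 7 RRN genes gave 2, 1, 1 and 0 higher and 0, 2, 0 and 2 lower. Over all tested genes the shares in these pairs were 13.8%, 22.0%, 6.40% and 18.2% higher. The shares lower were 13.4%, 21.2%, 9.72% and 20.3%, so 2 of 7 RRN genes lower (28.6%) was not far from the background. The exosome subunits with other names gave 0 of 7 in every pair.

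Grouped by promoter, the members with both cores had a median log2 ratio of 0.48 for DGY1726 over DGY1743 (n = 37), those with 1 core 0.25 (n = 23) and those with neither 0.28 (n = 5). For DGY1735 over DGY1743 these medians were 0.57, 0.39 and 0.28. Other tested genes with both cores, 296 in number and including the biogenesis genes of other names, had medians of 0.25 and 0.32 in these pairs, against -0.02 and -0.03 for the 3914 with neither. These values are a description without a test, and the motifs were found by letters alone.

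Of the regulators, TOD6 was at 52.9 and 47.1 CPM in DGY1726, 49.8 and 32.3 CPM in DGY1735, and 23.2 and 26.9 CPM in DGY1743, against 19.0 and 23.7 CPM in DGY1741. Tod6 represses these genes through PAC, and the DGY1726 and DGY1735 libraries all lay above all 4 libraries of DGY1743 and DGY1741. The log2 ratio was 1.01 ± 0.18 (SE) for DGY1726 over DGY1743 and 1.23 ± 0.16 for DGY1726 over DGY1741 (edgeR adjusted p = 0.000182 and 3.76e-06). For DGY1735 it was 0.92 ± 0.20 over DGY1741 (edgeR adjusted p = 0.00283) and 0.72 ± 0.22 over DGY1743, which did not pass (0.0659). DOT6, the paralog of TOD6, was higher in DGY1726 than in DGY1743 by 0.81 ± 0.16 and than in DGY1741 by 0.65 ± 0.14 (edgeR adjusted p = 0.000496 and 0.00068). It passed in no pair with DGY1735. SFP1, an activator of the regulon, was at 156 and 180 CPM in DGY1726, 149 and 146 CPM in DGY1735, and 102 and 113 CPM in DGY1743, against 89.5 and 113 CPM in DGY1741. It was higher in DGY1726 and in DGY1735 than in DGY1743 and in DGY1741, with log2 ratios of 0.46 to 0.73. SCH9, a nutrient-responsive kinase, was higher in DGY1726 than in DGY1743 by 0.43 ± 0.14 (edgeR adjusted p = 0.0247), and STB3, the RRPE-binding repressor, passed no test.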

How the data were processed

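RNA from 8 glutamine-limited chemostat cultures was sequenced (single reads). The authors aligned reads with STAR 2.7.6a after cutadapt trimming, left out known noncoding RNAs, and made the deposited counts per gene with bedtools 2.29.2 on the R64-1-1.50 annotation, strand-specifically. The labels call the molecule polyA RNA, while the study's methods state that no polyA selection was made. Raw counts of 6600 protein-coding rows were scaled by TMM, and edgeR 4.0.16 (R 4.3.3) was fitted by quasi-likelihood to genes averaging 100 counts or more, for 4 strains with 8 libraries and for each of 6 pairs with its 4, 2-sided, with Benjamini-Hochberg adjustment and a threshold of 0.05. DESeq2 1.42.0 was an alternative. SE is the absolute log2 ratio divided by the root of F. The procedure was tested on simulated data.

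Members and gene lists were chosen with earlier results of these data known. Named genes were UTP30 and RPF2, in each role group the member with the highest RPKM and those with the largest and smallest range of strain means, in each pair the called members with the highest and lowest ratio, all members of role groups of 4 or fewer, and 5 regulators. Of 99 listed genes with other names 97 were found, and without the regulators 92. Promoter windows were read from the R64 assembly of RefSeq, whose 17 chromosomes had the lengths given in the files, and 6567 of 6571 windows held ATG at the start. No 50-base stretch of a member occurred elsewhere in that genome.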

Additional observations from a re-analysis of the deposited data

How the results depend on the processing

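No result changed sign among those past the threshold. Medians over members stayed above 0 in all 14 alternatives for DGY1726 over DGY1743 (0.21 to 0.55), DGY1726 over DGY1741 (0.14 to 0.38), DGY1735 over DGY1743 (0.24 to 0.77) and DGY1735 over DGY1741 (0.16 to 0.56), and below 0 in 13 for DGY1743 over DGY1741 (-0.16 to -0.08). For DGY1726 over DGY1735 they ran from -0.28 to 0.16. Counts moved more, and the cause was not tested. Unless a background is printed, the share of all tested genes in an alternative is not given. A moved count may therefore reflect a change in calls over all genes. For members that differ among the 4 strains (30), leaving out 1 library gave 13 to 48. For members called higher it gave 10 to 34 for DGY1726 over DGY1743, 13 to 30 for DGY1726 over DGY1741, 0 to 45 for DGY1735 over DGY1743 and 2 to 43 for DGY1735 over DGY1741. For members called lower it gave 0 to 1 for DGY1726 over DGY1735, 0 to 1 for DGY1726 over DGY1743, 0 to 3 for DGY1726 over DGY1741, 0 to 2 for DGY1735 over DGY1741 and 2 to 10 for DGY1743 over DGY1741. In these fits the lone library of a strain is assumed to vary like the other strain's. Without replicate 1 of DGY1726 and of DGY1735, an alternative chosen after seeing the data, members called higher numbered 14 for DGY1726 over DGY1743, 11 for DGY1726 over DGY1741, 5 for DGY1735 over DGY1743 and 6 for DGY1735 over DGY1741, and called lower 1 for DGY1735 over DGY1741.

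The DESeq2 test called 32 members higher for DGY1735 over DGY1743 (edgeR 11) and 1 lower for DGY1735 over DGY1741 (edgeR 2). That last count was also 1 without the low-count filter and with mitochondrial and chromosome XI genes out of the library sizes. In the fit of 8 libraries, 18 were higher for DGY1726 over DGY1741, 32 higher for DGY1735 over DGY1743, 1 lower for DGY1735 over DGY1741 and 3 lower for DGY1743 over DGY1741. At a threshold of 0.01, 12 differed among the strains, 20 were higher and 0 lower for DGY1726 over DGY1743, 18 higher and 1 lower for DGY1726 over DGY1741, 1 higher for DGY1735 over DGY1743, 7 higher and 0 lower for DGY1735 over DGY1741, and 4 lower for DGY1743 over DGY1741. With UTP30 and RPF2 left out, 0 were lower for DGY1726 over DGY1743 and 0 higher for DGY1743 over DGY1741. Of the results on single named genes, 553 comparisons with an alternative kept their side of the threshold, 34 fell short of it and 47 passed it. DESeq2 size factors and the filterByExpr filter moved no count by over 1.5 times.

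Replicate numbers were not taken to pair the cultures, since correlations of same-numbered deviations were not above 0.1 in every pair of strains: they ran from -0.25 to 0.40 over all tested genes and from -0.27 to 0.62 over the members. Both highest values were for DGY1726 with DGY1741, and over the members 4 of 6 pairs of strains were above 0.2. With the replicate number as a block, 1 member was lower for DGY1726 over DGY1735, 5 lower for DGY1726 over DGY1741 and 27 higher for DGY1735 over DGY1743. Over all tested genes 2814 differed among the strains, against 2616 without the block. Calls either way over all tested genes went from 97 to 256, from 2385 to 3200 and from 891 to 903 in these pairs.

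Each p-value sets a difference between strains against a spread estimated from only 2 libraries a strain and moderated over genes. CPM are relative to the other RNA of the library, so a change in total RNA per cell was not measured.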
